A study of Oryza sativa with 36 samples.

Results

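The comparison described here set leaf sheaths of B15 rice under late brown planthopper (BPH) feeding against leaf sheaths of B15 plants that were never infested. Its members were chosen by their labels and are the 3 libraries B15_late-1, B15_late-2 and B15_late-3 and the 3 libraries B15_0-1, B15_0-2 and B15_0-3, which are 6 of the 36 libraries in the series. The series holds 12 groups of 3 libraries, from the recurrent parent RP and the near-isogenic lines (NILs) B14, B15 and B1415, each without infestation, at the early feeding stage and at the late feeding stage. RP is 'Wushansimiao', an inbred indica cultivar, and B15 is a line of that background carrying the resistance gene BPH15, so every sample compared here carried BPH15. Seedlings at the 4-leaf stage each received 8 BPH nymphs of the third instar, and a replicate joined the sheaths of 15 seedlings. The late group joined plants infested for 24, 48 and 72 h, so these times cannot be separated, and the B15_0 plants received no insects. B15_early (3, 6 and 12 h), RP_0 and RP_late are used below to place the levels and in side comparisons. Among these is a test of the late change in B15 against that in RP. The level of BPH15 itself was not analysed here.

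BPH pushes its stylets into the leaf sheath, feeds on phloem sap and injects saliva into the plant. BPH15 encodes a lectin receptor kinase of the plasma membrane, one of the proteins with which rice perceives attack at the cell surface. In rice, wounding and chewing or sucking insects are known to raise jasmonate, to induce inhibitors of digestive proteases and enzymes that cleave chitin or glucan, and to restrain growth.

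The deposited values are counts of fragments per gene. Total counts ranged from 12077743 to 16877240 in the 6 libraries, and 29082 to 29806 genes had at least 1 count. Levels are given below as counts scaled to a common library size (CPM) with trimmed-mean (TMM) factors, and they are compared between libraries for 1 gene, never between genes, since gene lengths were not used. Because the samples are bulk tissue, fewer cells of a type and less RNA per cell cannot be told apart. The green-tissue gene LHCB, which encodes a light-harvesting protein, was at 642 to 781 CPM in B15_0 and at 200 to 256 CPM in B15_late. In RP_0 it was at 306 to 318 CPM, well below B15_0, and in RP_late at 173 to 215 CPM. Whether the make-up of the tissue differed between the groups was not tested. The seed storage glutelin gene Glua1 was at or near 0 in B15_0, unlike SIP34 of the glutelin family, and both are described with the leading genes.

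The library labelled B15_late-3 went against its label. Genes that separated B15 from B1415 were sought in the uninfested and early libraries alone, and 2 were found. Os03g0848700 stood at 30.1 to 42.1 CPM in the B1415 libraries before late feeding and at 0 to 0.308 CPM in those of B15. It was at 0 in B15_late-1 and B15_late-2, at 37.5 CPM in the library labelled B15_late-3, and at 0 in the library labelled B1415_late-3. Os11g0632200 ran the other way, with 5.14 to 7.75 CPM in B15 and 0.591 to 1.20 CPM in B1415 before late feeding. It stood at 9.97 and 6.38 CPM in B15_late-1 and B15_late-2, at 0.793 CPM in the library labelled B15_late-3, and at 7.11 CPM in the library labelled B1415_late-3. Both genes place the library labelled B15_late-3 among B1415 libraries and the library labelled B1415_late-3 among B15 libraries. Across 24265 genes, which are not independent replicates, the library labelled B15_late-3 had a Spearman correlation of 0.995 with B1415_late-2 and of 0.981 and 0.982 with B15_late-1 and B15_late-2. Such correlations did not follow the line alone, since B15_late-1 had 0.989 with RP_late-3 and 0.987 with B15_late-2. Because the 2 genes go against the label, the counts of calls against B15_0 over all genes and by family are given with all 6 libraries under their labels. They are given again without the library labelled B15_late-3. Values of single genes rest on all 6 libraries unless stated.

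**Figure D1:**
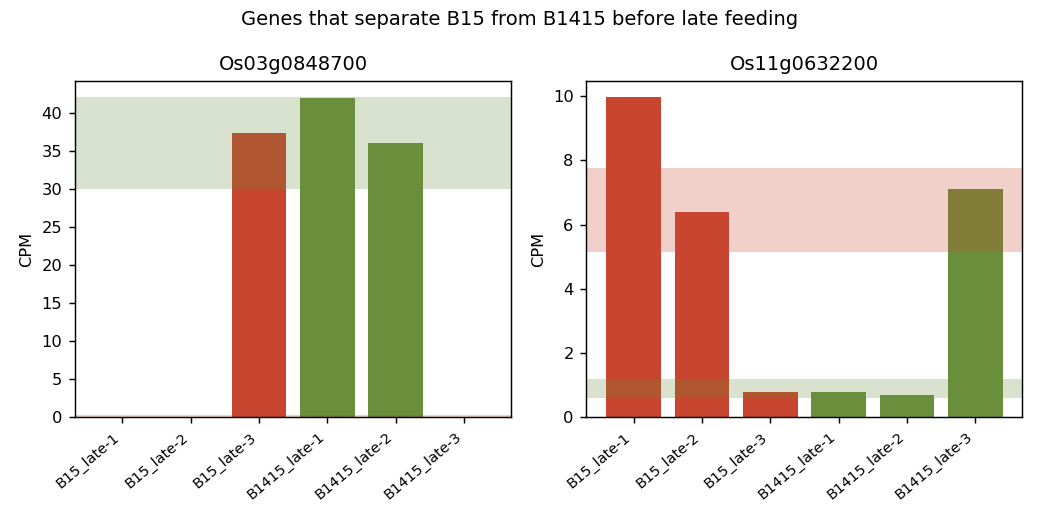
Level in CPM (y axis) of the genes Os03g0848700 and Os11g0632200 in each late library of B15 (red bars) and B1415 (green bars); shaded bands show the range of each line before late feeding, in the same colours. The library labelled B15_late-3 reaches 37.5 CPM of Os03g0848700 and only 0.793 CPM of Os11g0632200, within the green bands, and the library labelled B1415_late-3 lies within or next to the red bands.

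The sheath transcriptome of B15 at the late stage differed widely from that of uninfested B15 plants, in both directions and to about the same extent. Of 24265 genes tested, 3248 were called higher (13.4%) and 3364 lower (13.9%) in B15_late, where a call needed a change of more than 2-fold and, in the quasi-likelihood test of edgeR, a Benjamini-Hochberg adjusted p below 0.05. Calls of either direction made up 27.2% of the genes tested. Without the library labelled B15_late-3, 3474 of 24569 genes were called higher (14.1%) and 3684 lower (15%). Of the higher calls 3027 (93.2%) were also called higher without that library, of the lower calls 3157 (93.8%) were also called lower, and 0 genes were called in opposite directions.

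The genes called higher held a smaller share of the counts before infestation than those called lower. The higher calls together held 4.77% of all CPM in B15_0 and 15.6% in B15_late, and the lower calls held 27.9% in B15_0 and 12.0% in B15_late. The largest changes were increases. More than 16-fold changes were called for 59 genes higher and for 8 genes lower, and 83 of the 100 largest called changes were higher. The largest fitted change was that of Os07g0190600, for which no product name was found. It had 0 counts in each B15_0 library, 20, 21 and 19 counts in the B15_early libraries and 205, 99 and 119 counts in B15_late-1, B15_late-2 and the library labelled B15_late-3. Against a floor of 3 counts over the B15_0 libraries, it was at least 120-fold higher in B15_late, and at least 141-fold higher without the library labelled B15_late-3.

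**Figure D2:**
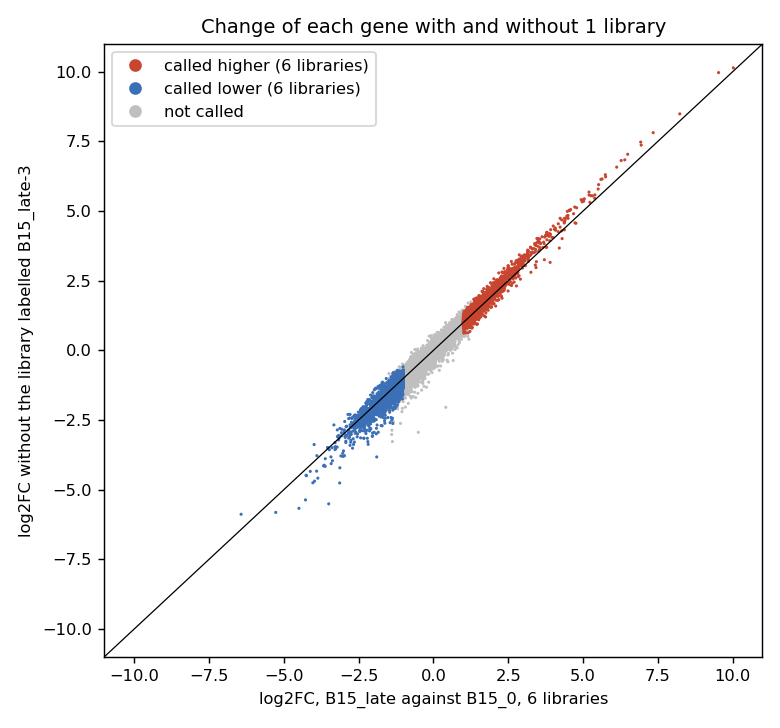
Each point is 1 gene; x axis, log2 fold change (log2FC) of B15_late against B15_0 with 6 libraries; y axis, the same without the library labelled B15_late-3; the line marks equal values. Red (3248 higher) and blue (3364 lower) mark calls with 6 libraries, and 0 genes were called in opposite directions without the library labelled B15_late-3. Many of the largest increases lie above the line.

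Uninfested B15 stood apart from uninfested RP, and this difference touches most of the results below. Set side by side, B15_0 against RP_0 had 3018 genes called higher (12.6%) and 2798 lower (11.7%), while B15_late against RP_late had 107 called higher (0.446%) and 19 lower (0.0791%), or 197 (0.816%) and 29 (0.12%) without the library labelled B15_late-3. RP_late against RP_0 had 2300 called higher (9.7%) and 1808 lower (7.62%). When the B15_late libraries were set against RP_0 in place of B15_0, 2501 were called higher (10.3%) and 1383 lower (5.72%), and without the library labelled B15_late-3 2940 (11.9%) and 1890 (7.67%). These comparisons share libraries and are given as values only. For each family the median log2FC of B15_0 against RP_0 and the count of calls of B15_late against RP_0 are therefore given beside its result. Whether the difference of B15_0 from RP_0 belongs to the line or to those 3 libraries was not tested, and the labels do not separate these.

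The change with late feeding was also tested directly against the change in RP, as an interaction of line and stage in 12 libraries. It differed for 11640 of 25103 genes (46.4%) at an adjusted p below 0.05, and for 11665 genes without the library labelled B15_late-3. The log2FC was larger in B15 for 5659 genes (22.5%) and smaller for 5981 genes (23.8%).

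Names of gene products were taken from the study's supplementary tables of genes that it selected on these samples. The longest of these tables was used only in part, so names were at hand for 1592 genes, 918 of them on chromosome 1 by their identifiers, and every family below is an incomplete sample of its genes. Of the 1230 listed genes that were tested, 24.2% were called higher and 34.5% lower. A product name was found for 637 of the genes tested. Of these, 195 (30.6%) were called higher and 215 (33.8%) lower, 64.4% together, and these shares, not 13.4% and 13.9%, are the ones against which a count within a named family should be read. Neither the names nor the families are independent evidence of a direction, since the genes entered those tables as changed genes. Interaction results by family are set beside the share of all genes, because the share among named genes was not counted.

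The 10 leading increases among named genes were those of the seed storage gene Glua1, 4 Bowman-Birk protease inhibitors, a glucanase, a jasmonate-induced protein, a lectin and 2 proteins known by a domain alone. RBBI3-2 (Os01g0124100), a Bowman-Birk inhibitor of trypsin-like proteases, stood at 0.347, 0.325 and 0.403 CPM in the B15_0 libraries and at 45.4, 24.0 and 7.10 CPM in B15_late-1, B15_late-2 and the library labelled B15_late-3. The groups did not overlap, which the rule for leading genes required and which held over all genes for 34% in the higher and 33.6% in the lower direction. The log2FC was 6.13 (SE 0.70, adjusted p = 9.3e-06). OsPR2 (Os05g0375400), a beta-glucanase of the PR2 class of pathogenesis-related proteins, rose from 24.7, 23.9 and 26.5 CPM to 639, 650 and 176 CPM, with a log2FC of 4.29 (SE 0.39, adjusted p = 1.65e-06). OsJRL (Os01g0348900), a jacalin-related mannose-binding lectin, rose from 54.3, 41.9 and 53.6 CPM to 1098, 512 and 87.5 CPM. Its log2FC was 3.51 (SE 0.60, adjusted p = 0.000247) and became 4.01 without the library labelled B15_late-3. In these 3 genes every late library was above every B15_0 library, and the library labelled B15_late-3 was the lowest of the late ones.

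OsJAC1 (Os12g0247700), annotated as similar to a jasmonate-induced protein, differed from them in that the library labelled B15_late-3 was not the lowest. Its levels were 0.433, 0.975 and 0.403 CPM in B15_0 and 7.74, 17.7 and 12.1 CPM in B15_late, and the log2FC was 4.29 with and without that library. Glua1 (Os01g0762500), a subunit of the seed storage protein glutelin, had 1 count over the 3 B15_0 libraries and 471 counts over the 3 late ones. The ratio of its levels was 400 (exact 95% interval of counting error alone, 71.5 to 15844). Its levels in B15_late were 13.8, 11.1 and 6.11 CPM, and it also reached 11.8 ± 2.87 CPM (SD, n = 3) in RP_late from 1.10 ± 0.244 CPM in RP_0. SIP34 (Os01g0111900), of the glutelin family, was not called, at 317 to 332 CPM in B15_0 and 151 to 198 CPM in B15_late. The remaining leading increases were those of Os01g0266800, a cystinosin/ERS1p repeat protein (10.1 ± 0.314 to 117 ± 66.5 CPM), and Os09g0268600, a SWIM-type zinc finger protein (1.40 ± 0.201 to 18.2 ± 6.87 CPM). Both stood at similar levels in the 3 B15_0 libraries.

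The leading decreases were less steep than the increases and varied less between the late libraries. OsGELP5 (Os01g0215500), an esterase of the GDSL family, fell from 57.0, 48.6 and 50.7 CPM to 5.91, 6.68 and 8.31 CPM, with a log2FC of -2.89 (SE 0.15, adjusted p = 9.18e-08). Os01g0516200, annotated as similar to a stress-responsive protein, fell from 134, 100 and 128 CPM to 20.5, 23.3 and 22.7 CPM. OsGSTF1 (Os01g0371200), a glutathione S-transferase, fell from 115 ± 15.7 CPM to 23.8 ± 1.51 CPM (SD, n = 3). In these 3 genes the late libraries stayed close to each other. OsERF#141 (Os02g0638650), a transcription factor with an ERF domain, fell from 17.5, 14.8 and 15.6 CPM to 3.38 ± 1.13 CPM and was lowest in the library labelled B15_late-3 (2.09 CPM). The other leading decreases were those of the glycoside hydrolases Os03g0221500 (log2FC -2.41) and Os01g0296700 (-2.36), the IQ calmodulin-binding proteins Os01g0190500 (-2.35) and Os03g0636700 (-2.30), the GDSL lipase OsGELP2 (-2.21) and the glycosyltransferase UGT703A1 (-2.16). All 20 leading genes were called in the same direction without the library labelled B15_late-3, as the rule that chose them required.

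**Figure D3:**
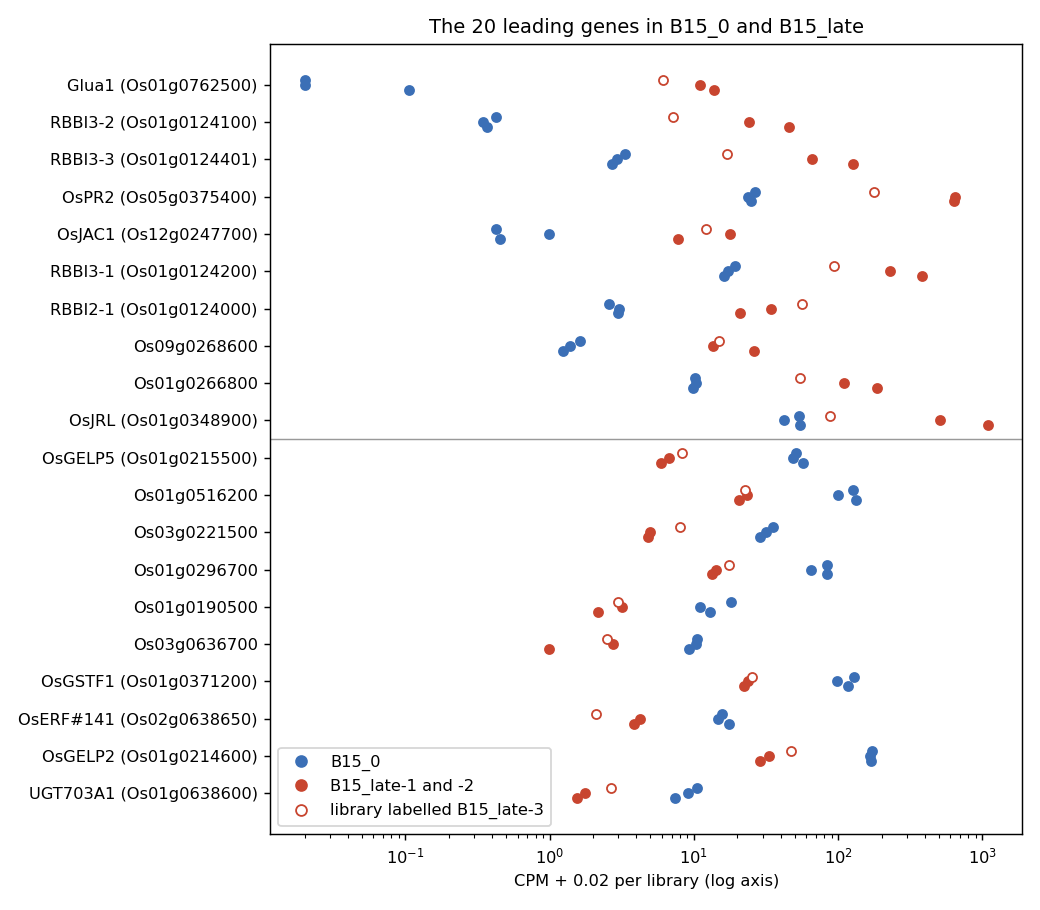
Level of the 10 named genes with the largest increases (above the grey line) and the 10 with the largest decreases (below it) in each library, on a log axis of CPM + 0.02; blue points are B15_0, filled red points B15_late-1 and B15_late-2, open red points the library labelled B15_late-3. Groups do not overlap because the genes were chosen so, and the open points of OsPR2 (176 CPM) and OsJRL (87.5 CPM) lie well to the left of the filled ones.

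Receptors come first among the families. Receptor-like and wall-associated kinases sit at the membrane or bind to such receptors and relay signals from outside the cell. Of 21 tested, 16 were called higher and 0 lower, with a median log2FC of 1.26, and 14 were called higher without the library labelled B15_late-3. WAK112 (Os10g0180800), a wall-associated kinase known as a negative regulator of rice blast resistance, rose from 18.2 ± 1.37 CPM (SD, n = 3) to 155, 90.3 and 73.1 CPM (log2FC 2.55, SE 0.23, adjusted p = 1.63e-06). OsRLCK2 (Os01g0113200) and OsRLCK3 (Os01g0113300), receptor-like cytoplasmic kinases, had log2FCs of 2.70 and 1.79, and OsRLCK25 (Os01g0152800) 2.01, all from levels of at most 1.11 CPM in B15_0. The kinases were also lower in B15_0 than in RP_0 (median log2FC -1.17). Against RP_0, 5 were called higher and 1 lower in B15_late (5 and 2 without the library labelled B15_late-3), and WAK112, at 64.0 ± 3.90 CPM in RP_0, had a log2FC of 0.72 there.

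NB-ARC and NBS-LRR proteins are intracellular immune receptors that recognise effectors. Of 10 tested, 9 were called higher and 1 lower (median log2FC 1.77), with the same counts of 9 and 1 without the library labelled B15_late-3. Os11g0266500 stood at 3.99, 5.01 and 3.95 CPM in B15_0 and at 23.0, 21.6 and 17.8 CPM in B15_late (log2FC 2.26, SE 0.17, adjusted p = 5.38e-07). Os11g0550500 rose from 4.34 ± 0.511 to 18.6 ± 3.39 CPM and Os11g0598300 from 2.80 ± 0.612 to 9.98 ± 0.169 CPM (SD, n = 3). The member that fell was Os01g0269800 (8.54 to 3.29 CPM), which the rule for named genes did not select. The family was lower in B15_0 than in RP_0 by a median log2FC of -1.55. Os11g0266500 was at 12.1 ± 0.271 CPM in RP_0 and 23.3 ± 4.43 CPM in RP_late, and against RP_0 none of the family was called in B15_late (0 genes, or 0 higher and 2 lower without the library labelled B15_late-3). The rise was larger in B15 than in RP by the interaction test for 8 of the 10 genes, beside 22.5% of all genes. That test uses the same B15_0 libraries and is not separate evidence of a rise.

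Jasmonate is the main wound hormone of plants. Of 4 genes linked to it by name, 3 were called higher and 0 lower, and 3 were called higher against RP_0 as well. In B15_0 their median log2FC against RP_0 was 0.16. Beside OsJAC1 these were OsJAR2 (Os01g0221100), a GH3-family enzyme related to those that conjugate jasmonate to amino acids, which rose from 18.7 ± 1.28 to 44.7 ± 6.55 CPM, and OsOPR10 (Os01g0369900), a 12-oxo-phytodienoic acid reductase, which rose from 6.00 ± 0.598 to 13.1 ± 0.633 CPM. OsOPR10 had reached 13.2 ± 1.57 CPM at the early stage. The levels of both at RP_0, 18.8 ± 1.97 and 5.20 ± 0.373 CPM, were close to those at B15_0. The remaining gene, Os12g0198700, had a log2FC of -1.10 (adjusted p = 0.085) and was called lower without the library labelled B15_late-3 (-2.62). NH1 (Os01g0194300), an ankyrin-repeat regulator of herbivore-induced defence in rice, is not one of these 4 genes and does not count with them. It was called higher at 47.2, 52.1 and 44.3 CPM in B15_late against 23.7, 21.8 and 21.1 CPM in B15_0. It is named here after its values were seen and without its level in RP_0.

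Bowman-Birk protease inhibitors block the trypsin-like and chymotrypsin-like enzymes that herbivores digest protein with. All 7 tested members were called higher (median log2FC 3.71), also without the library labelled B15_late-3 and also against RP_0. RBBI3-1 (Os01g0124200) was at 17.5 ± 1.68 CPM (SD, n = 3) in B15_0 and at 383, 229 and 93.8 CPM in B15_late (log2FC 3.75, SE 0.38, adjusted p = 3.78e-06). RBBI2-1 (Os01g0124000) was at 2.95, 2.99 and 2.58 CPM in B15_0 and at 20.8, 34.0 and 56.2 CPM in B15_late, so that here the library labelled B15_late-3 was the highest. RBBI3-3 (Os01g0124401) rose from 2.97 ± 0.310 to 69.9 ± 54.9 CPM, and the smallest rise was that of IAI2 (Os01g0132000), similar to the wound-induced inhibitor WIP1, with a log2FC of 1.05 from 209 CPM. The RBBI members of the family follow each other by their identifiers, while Os01g0127600 and IAI2 lie apart. How reads were divided among similar copies is uncertain and was not examined. RBBI2-3 (Os01g0124650), listed as a hypothetical conserved gene, fell outside the keyword family. It was also called higher (log2FC 2.44, from 140 to 759 CPM on average). In B15_0 the family stood at a median log2FC of 0.55 against RP_0, and the interaction test found a difference from RP for 0 of its 7 genes, beside 46.4% of all genes. RBBI3-1 reached 194 ± 51.3 CPM in RP_late from 15.0 ± 2.30 CPM in RP_0.

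Chitinases and beta-1,3-glucanases split. Of 7 tested, 3 rose and 4 fell. Those that rose were OsPR2, Cht9 (Os05g0399400), a chitinase at 0.260, 0.0650 and 0.322 CPM in B15_0 and 2.68, 4.29 and 5.56 CPM in B15_late, and the class III chitinase homologue Os11g0701500 (log2FC 3.63, SE 0.71, adjusted p = 0.000626). Those that fell included the glucanase-related Os03g0221500, Os01g0243700 (log2FC -1.95) and Os03g0117300 (-1.47), enzymes of a class that also acts on the plant's own callose and wall glucans, and Cht10 (Os01g0287600, -1.03), whose call was lost without the library labelled B15_late-3. In B15_0 the median log2FC of the family against RP_0 was 0.66. Against RP_0, 3 were called higher and 0 lower (3 and 2 without the library labelled B15_late-3).

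Lectins bind sugars on cell walls or on the surfaces of attackers. Of 6 tested, 5 were called higher and 1 lower (median log2FC 2.92), with the same counts without the library labelled B15_late-3. In B15_0 their median log2FC against RP_0 was -1.13, and against RP_0 4 were called higher in B15_late. Os12g0130200, a D-mannose-binding lectin, rose from 0.520, 0.390 and 0.0806 CPM to 6.83, 4.79 and 2.97 CPM, and Os12g0177800 of the same class from 1.06 ± 0.103 to 5.36 ± 0.653 CPM (SD, n = 3). The agglutinin precursor Os04g0173800 had 2 counts in B15_0 and 57 in B15_late, a ratio of 24.2 (exact 95% interval of counting error, 6.40 to 205). It was at 0 in every RP_0 library and at 0.0301 CPM on average in RP_late. Os01g0104400, with a ricin-type lectin domain, was the member that fell (log2FC -1.14).

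WRKY factors switch on many defence genes in other settings. The 5 with a name here all lie on chromosome 1 and stand for a small piece of the family. Of these 5, 0 were called higher and 1 lower. OsWRKY102 (Os01g0182700) was at 5.89, 6.11 and 6.04 CPM in B15_0 and at 2.38, 2.23 and 3.19 CPM in B15_late (log2FC -1.19, SE 0.22, adjusted p = 0.00043), with 2.86 ± 1.33 CPM in RP_0. OsWRKY10 (Os01g0186000) had a log2FC of 0.76 (adjusted p = 0.082) and was called higher without the library labelled B15_late-3. The WRKY counts then became 1 higher and 2 lower, and without replicate 3 of B15_0 2 were called lower. In B15_0 the median log2FC of these genes against RP_0 was 1.01, and against RP_0 2 were called higher and 0 lower in B15_late.

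Class III peroxidases are secreted enzymes that use hydrogen peroxide to cross-link walls. Of 11 tested, 0 were called higher and 7 lower (median log2FC -1.31), with the same counts without the library labelled B15_late-3. The peroxidase prx2 (Os01g0205900) fell from 105, 82.3 and 107 CPM to 28.1, 38.0 and 34.3 CPM (log2FC -1.55, SE 0.14, adjusted p = 1.62e-06), and prx14 (Os01g0327000) from 5.34 ± 1.29 to 1.23 ± 0.248 CPM. At RP_0, prx2 stood at 36.6 ± 3.07 CPM, within the range of the late B15 libraries. OsPOX8.1 (Os07g0677100), a peroxidase that the study examined, had 7.97, 4.03 and 4.59 CPM in B15_0 and 8.78, 10.3 and 12.6 CPM in B15_late. Its log2FC of 0.96 (SE 0.25, adjusted p = 0.00436) was under the 2-fold limit, and it became 1.28 without replicate 1 of B15_0 and 1.08 without replicate 1 of B15_late, both called. At B15_early OsPOX8.1 was above the limit, with a log2FC of 1.10 (adjusted p = 0.00116). In B15_0 the median log2FC of the peroxidases against RP_0 was 0.47, and against RP_0 1 was called higher and 2 lower (2 and 3 without the library labelled B15_late-3).

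Enzymes of secondary metabolism were called in both directions, as were named genes as a whole (30.6% higher and 33.8% lower). Of 12 UDP-glycosyltransferases, which attach sugars to small molecules, 2 were called higher and 5 lower. Without the library labelled B15_late-3, 6 of 13 were called higher and 5 lower. The higher count was 0 without replicate 2 of B15_0, 4 without its replicate 3 and 1 without replicate 2 of B15_late, so it depends on single libraries. In B15_0 the median log2FC against RP_0 was 0.77, and against RP_0 5 were called higher and 2 lower (7 and 3 without the library labelled B15_late-3). OsUGT706J1 (Os05g0527600) fell from 13.8, 13.4 and 12.1 CPM to 3.47, 4.37 and 3.08 CPM, and the gene named UGT (Os06g0192100), similar to a flavonoid glucosyltransferase, fell from 28.5 ± 2.99 to 8.34 ± 1.16 CPM. Of 7 cytochrome P450s, 1 was called higher and 4 lower, with the same counts without the library labelled B15_late-3 and 2 lower without replicate 1 of B15_late. In B15_0 their median log2FC against RP_0 was 0.70, and against RP_0 1 was called higher and 0 lower (1 and 2 without the library labelled B15_late-3). Os01g0543600 was the one that rose, from 5.03, 6.11 and 4.51 CPM to 28.5, 29.7 and 34.8 CPM (log2FC 2.57, SE 0.16, adjusted p = 2.16e-07), and it was at 18.6 ± 1.02 CPM at the early stage. Os01g0804400, of the same family, fell from 4.65 ± 1.28 to 0.908 ± 0.279 CPM. Of 5 glutathione S-transferases, OsGSTU7 (Os01g0949700, log2FC 1.24) was called higher and OsGSTF1 lower, and the call of OsGSTU7 was lost without the library labelled B15_late-3 (0.97). A second transferase was called lower without replicate 2 of B15_0 or replicate 2 of B15_late (2 genes in all). In B15_0 the median log2FC of this family against RP_0 was 1.09, and against RP_0 2 were called higher and 0 lower (2 and 1 without the library labelled B15_late-3).

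GDSL lipases and other esterases hydrolyse lipids and esters, among them those of cutin and wax. Of 12 tested, 1 was called higher and 6 lower (median log2FC -1.01), and 1 and 7 without the library labelled B15_late-3. Beside OsGELP5 and OsGELP2 the decreases included OsGELP52 (Os03g0581400), at 4.16, 2.02 and 4.03 CPM in B15_0 and 0.122, 0.825 and 1.76 CPM in B15_late (log2FC -1.84, or -2.94 without the library labelled B15_late-3), and Os01g0317500 (log2FC -1.81). In B15_0 the esterases stood at a median log2FC of 0.19 against RP_0, and against RP_0 2 were called higher and 7 lower (2 and 8 without the library labelled B15_late-3). In RP_late the levels of OsGELP5 and OsGELP2 were 5.77 ± 0.247 and 31.7 ± 3.69 CPM, against 6.97 ± 1.22 and 36.4 ± 9.58 CPM in B15_late.

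Secreted proteins of the wall and membrane surface fell together. All 7 lipid transfer, fasciclin-like and X8 proteins tested were called lower (median log2FC -1.88), also without the library labelled B15_late-3. OsLTP1.2 (Os01g0822900), a lipid transfer protein, fell from 675, 621 and 715 CPM to 136, 159 and 194 CPM (log2FC -2.03, SE 0.14, adjusted p = 3.57e-07). OsFLA4 (Os08g0490600), a fasciclin-like arabinogalactan protein, fell from 83.1, 76.5 and 90.5 CPM to 17.9, 25.3 and 22.3 CPM. Both were much lower in RP_0, at 279 ± 11.2 and 34.3 ± 1.39 CPM. The family stood at a median log2FC of 1.22 in B15_0 against RP_0, and 1 of the 7 was called lower against RP_0.

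Among the enzymes that loosen or remodel wall polysaccharides, 7 of 10 were called lower and 0 higher (median log2FC -1.25), and 9 of 12 were called lower without the library labelled B15_late-3. OsEXPA9 (Os01g0249100), an expansin, the class of proteins that loosens walls for growth, was at 4.16, 3.25 and 4.75 CPM in B15_0 and at 0.0610, 0.0825 and 0.330 CPM in B15_late (log2FC -4.50, SE 0.46, adjusted p = 4.27e-06), and the log2FC was -5.67 without the library labelled B15_late-3. OsPME1 (Os01g0254300) and OsPME25 (Os08g0450100), pectin methylesterases, had log2FCs of -1.59 and -1.71, and that of OsPME25 became -2.71 without the library labelled B15_late-3. The wall enzymes stood at a median log2FC of 0.90 in B15_0 against RP_0, and against RP_0 2 were called lower and 1 higher. All 3 RALF peptides tested, small secreted signals that rapidly alkalinise the space outside cells, were called lower, also without the library labelled B15_late-3. OsRALF-5 (Os01g0257100) fell from 131, 107 and 142 CPM to 23.5, 31.5 and 34.3 CPM, OsRALF-4 (Os01g0357900) had a log2FC of -1.62 and OsRALF-6 (Os01g0358100) of -1.56. RALF levels were higher in B15_0 than in RP_0 (median log2FC 1.28), and 0 of 3 were called against RP_0.

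Most genes of cell division and of the cytoskeleton with a name were called lower. All 5 histones tested were called lower (median log2FC -1.50), also without the library labelled B15_late-3. A further histone, Os01g0502900, was below the filter on low counts here and was called higher when replicate 1, 2 or 3 of B15_0 or replicate 2 of B15_late was left out (1 gene). Os01g0502700, a histone H2A, fell from 55.0, 52.3 and 65.2 CPM to 12.9, 14.7 and 17.7 CPM (log2FC -1.92, SE 0.14, adjusted p = 4.75e-07), and Os08g0427700, another H2A, from 75.2 ± 6.39 to 26.2 ± 6.73 CPM. Of 11 tubulins, kinesins and cell-cycle proteins, 8 were called lower, 0 higher and 3 not called, with the same counts of calls without the library labelled B15_late-3. OsTUB1 (Os01g0282800), a beta-tubulin, fell from 530, 585 and 553 CPM to 130, 147 and 182 CPM, and the mitotic kinase gene CDKB2 (Os08g0512600) from 26.4, 32.2 and 29.9 CPM to 7.19, 6.85 and 14.1 CPM. OsCycB1 (Os01g0281200), a B-type cyclin, had a log2FC of -3.09 from 2.08 CPM, and -3.79 without the library labelled B15_late-3. Os01g0502700 was at 25.8 ± 1.45 CPM in RP_0 and 13.3 ± 1.88 CPM in RP_late. Against RP_0, 0 histones and 4 of the tubulins, kinesins and cell-cycle proteins were called lower in B15_late (0 and 6 without the library labelled B15_late-3), and B15_0 was above RP_0 by a median log2FC of 1.06 for the histones and 0.47 for the latter.

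Of 4 small GTPases, which act as switches of membrane traffic, 3 were called lower, also without the library labelled B15_late-3. In B15_0 their median log2FC against RP_0 was 0.40. OsARFA1e (Os01g0265100), an ADP-ribosylation factor, fell from 123, 118 and 121 CPM to 28.5, 26.8 and 38.6 CPM (log2FC -1.93, SE 0.14, adjusted p = 3.9e-07). It was at 116 ± 3.86 CPM in RP_0 and 28.1 ± 5.40 CPM in RP_late, and of the family it alone was called lower against RP_0. OsARL1e (Os01g0338000) and OsRab1C1 (Os01g0179700) had log2FCs of -1.31 and -1.27.

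Ribosomal proteins, the subunits of the machinery that makes protein, were called lower for 8 of 11 and higher for 1 (median log2FC -1.06), with the same counts without the library labelled B15_late-3 and 5 lower without replicate 1 of B15_late. Os01g0205500, similar to L11 of the large subunit, fell from 418, 333 and 423 CPM to 125, 148 and 146 CPM (log2FC -1.48, SE 0.13, adjusted p = 1.29e-06). The member that rose, Os07g0203275, has an S1-type RNA-binding domain and was at 2.34, 0.845 and 1.53 CPM in B15_0 and 5.06, 3.80 and 4.18 CPM in B15_late. The ribosomal proteins were above RP_0 in B15_0 by a median log2FC of 0.99. Os01g0205500 was at 173 ± 5.42 CPM in RP_0 and 119 ± 4.60 CPM in RP_late, and against RP_0 none of the family was called in either direction (0 higher, 0 lower, or 1 higher and 2 lower without the library labelled B15_late-3).

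Proteins that act on chromatin or unwind nucleic acids rose. All 9 tested were called higher (median log2FC 1.28), and 8 without the library labelled B15_late-3. OsHAC701 (Os01g0246100), of the histone acetyltransferase class, stood at 19.1, 20.5 and 17.6 CPM in B15_0 and at 60.9, 43.9 and 50.8 CPM in B15_late (log2FC 1.45, SE 0.14, adjusted p = 2.29e-06). The helicase-related Os05g0422900 rose from 9.90 ± 1.30 to 31.1 ± 4.07 CPM, and Os01g0212100, with a helicase domain, from 17.4 ± 2.27 to 48.8 ± 8.64 CPM. OsHAC701 was at 51.7 ± 2.24 CPM in RP_0 and 55.9 ± 5.95 CPM in RP_late. The family was below RP_0 in B15_0 (median log2FC -1.35), none was called higher against RP_0 (0 genes), and all 9 rose further than in RP by the interaction test, beside 22.5% of all genes. That test uses the same B15_0 libraries and is not separate evidence of a rise.

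WD40 proteins, scaffolds of protein complexes, were called higher for 6 of 11 and lower for 1 (median log2FC 1.02), or higher for 6 and lower for 2 without the library labelled B15_late-3. The higher count was 3 without replicate 1 of B15_0 and 4 without its replicate 3 or without replicate 1 of B15_late, and without replicate 3 of B15_0 2 were called lower. In B15_0 their median log2FC against RP_0 was -1.06, and 1 was called higher against RP_0 (2 without the library labelled B15_late-3). OsWD40-6 (Os01g0185400) rose from 25.7, 28.0 and 21.8 CPM to 78.0, 71.0 and 58.7 CPM, and OsWD40-187 (Os11g0212900) from 0.259 ± 0.0636 to 2.14 ± 1.05 CPM. Pentatricopeptide repeat proteins, which bind RNA in the organelles, were mixed, with 4 of 13 called higher and 2 lower (median log2FC 0.11), and 3 and 1 without the library labelled B15_late-3, where the median was -0.09. Among all named genes 30.6% were called higher and 33.8% lower. The lower count of the pentatricopeptide repeat proteins was 1 without replicate 3 of B15_0 or replicate 1 of B15_late and 3 without replicate 2 of B15_late. Os01g0357800 rose from 24.6, 27.8 and 24.2 CPM to 102, 63.9 and 76.6 CPM (log2FC 1.67, SE 0.16, adjusted p = 2.29e-06), while RP_0 and RP_late stood at 75.5 ± 3.27 and 83.1 ± 8.55 CPM. These repeat proteins stood at a median log2FC of -0.47 in B15_0 against RP_0, and against RP_0 0 were called higher and 3 lower.

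**Figure D4:**
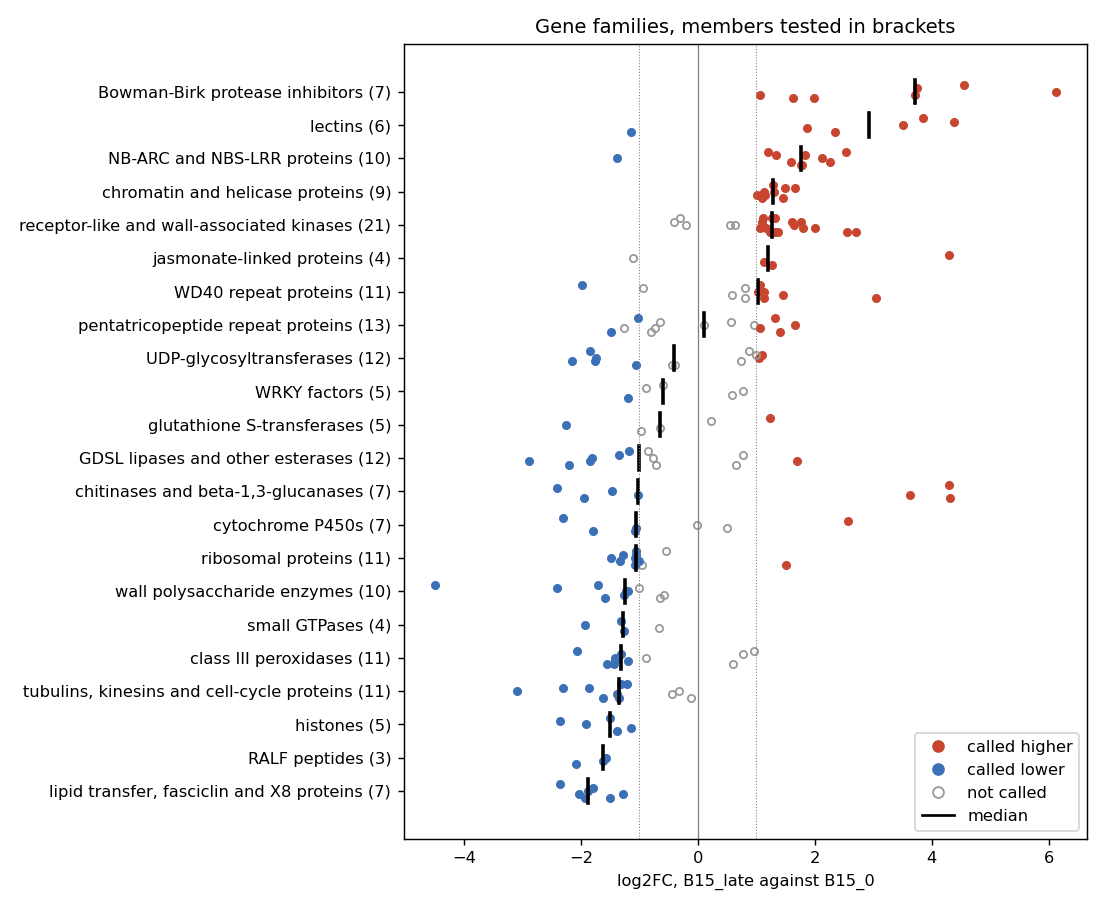
Log2FC of B15_late against B15_0 (x axis) for each tested member of the 22 families (rows, sorted by median; number tested in brackets); red points were called higher, blue points lower, open points not called; black bars are medians and dotted lines mark 2-fold. The Bowman-Birk inhibitors (median 3.71) stand at the top with all members red, and the lipid transfer, fasciclin and X8 proteins (median -1.88) at the bottom with all members blue.

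Singled out after their values were seen, several regulators and metabolic genes outside these families were also called. DOS (Os01g0192000), a zinc finger protein known as a negative regulator of leaf senescence, was at 38.8, 45.3 and 37.5 CPM in B15_0 and 127, 136 and 105 CPM in B15_late (log2FC 1.60). NYC1 (Os01g0227100), a chlorophyll b reductase of leaf senescence, rose from 79.3, 87.8 and 73.4 CPM to 272, 172 and 159 CPM (log2FC 1.33), with a log2FC of 0.47 against RP_0. OsbHLH035 (Os01g0159800), similar to a DNA-binding protein, rose from 4.79 to 27.5 CPM on average. On the lower side, OsCAD3 (Os10g0430200), similar to sinapyl alcohol dehydrogenase, and 4CL1 (Os08g0245200), a ligase of lignin synthesis, had log2FCs of -1.65 and -1.16. OsPR1#021 (Os02g0786500), similar to a PR-1a protein, fell from 13.5, 11.6 and 15.1 CPM to 2.93, 3.22 and 3.25 CPM (log2FC -2.09), so that PR-type genes did not all move one way. Of the genes in this paragraph, only NYC1 is set beside RP_0. How far the changes of the others rest on the difference of B15_0 from RP_0 was not tested.

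Levels at the early stage lay between those of B15_0 and B15_late for most of the genes plotted by stage. At B15_early, 472 genes (1.95%) were called higher and 264 (1.09%) lower than in B15_0, far fewer than at the late stage, though with the same 3 B15_0 libraries. RBBI3-1 was at 90.2 ± 9.00 CPM, OsPR2 at 89.3 ± 8.72 CPM and OsTUB1 at 258 ± 15.0 CPM at the early stage, each apart from both B15_0 and the mean of B15_late. OsJRL, at 43.3 ± 7.78 CPM, and WAK112, at 20.6 ± 2.07 CPM, were at the early stage still within or near their B15_0 ranges. For OsLTP1.2 the order was 670 ± 46.8, 401 ± 29.5 and 163 ± 28.9 CPM from B15_0 through B15_early to B15_late, and RP_0 (279 ± 11.2 CPM) stood below B15_early.

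**Figure D5:**
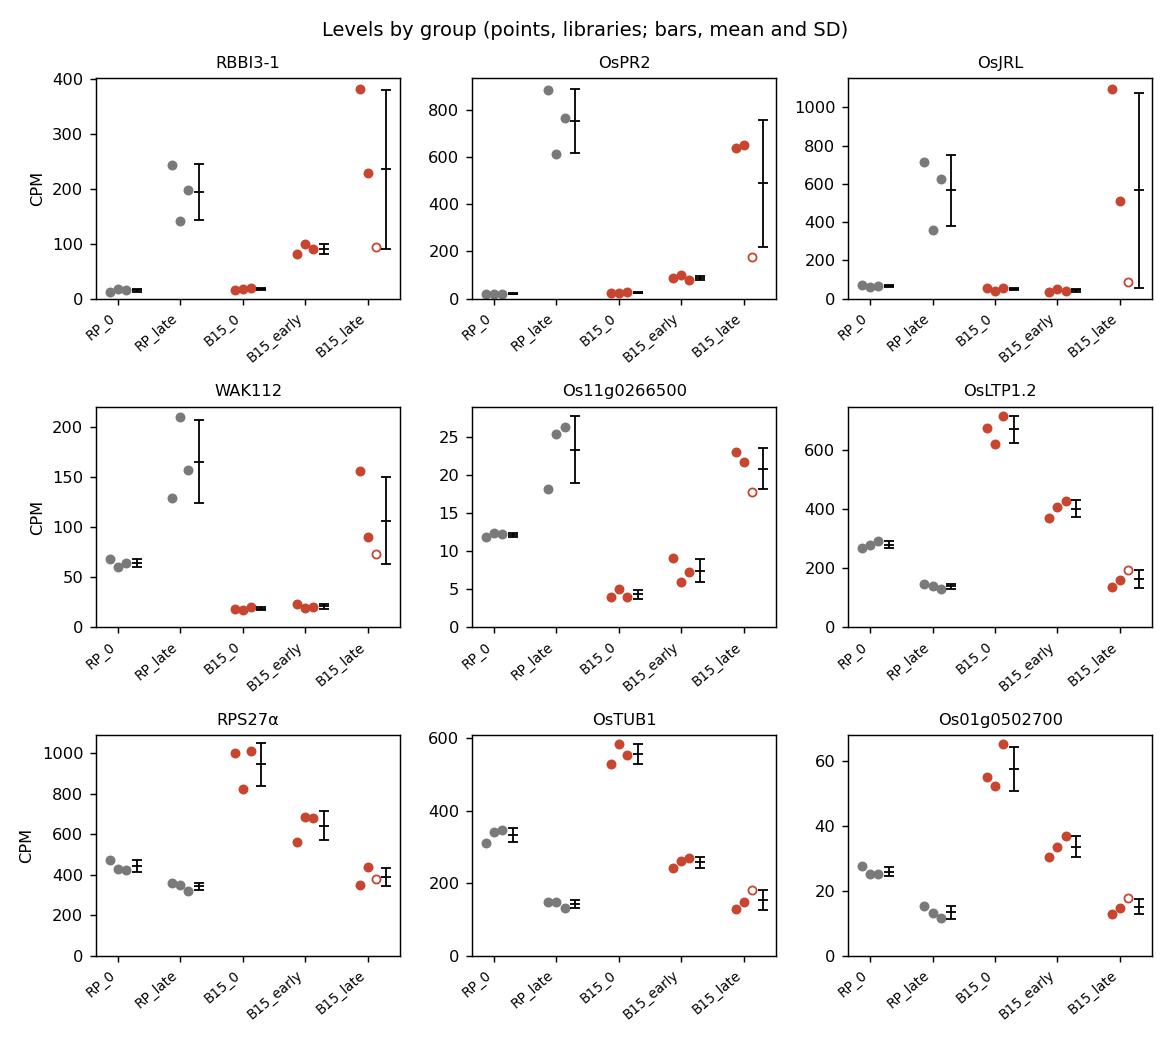
Level in CPM (y axes, from 0) of 9 genes in RP_0, RP_late, B15_0, B15_early and B15_late; grey and red points are libraries, the open point is the library labelled B15_late-3, and bars show mean and SD (n = 3). The defence genes of the top row rise in both lines (OsPR2 to 754 CPM in RP_late and 488 CPM in B15_late), while in the middle and bottom rows B15_0 lies apart from RP_0, below it for WAK112 and Os11g0266500 and above it for the other genes.

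Of the genes used as internal references in rice, 3 were called lower in this comparison. ACTIN1 (Os03g0718100) fell from 308, 338 and 325 CPM to 91.6, 95.7 and 127 CPM (log2FC -1.62, SE 0.14, adjusted p = 1.05e-06), RPS27α (Os01g0328400), a ribosomal protein fused to ubiquitin, from 946 ± 107 to 388 ± 45.1 CPM, and GAPDH (Os02g0601300) from 145 ± 12.2 to 63.8 ± 2.62 CPM. At RP_0 RPS27α was at 443 ± 28.4 CPM and GAPDH at 79.3 ± 6.36 CPM, and against RP_0 their log2FCs in B15_late were -0.20 and -0.32, neither called, while that of ACTIN1 was -1.30. TBP (Os03g0657000), the TATA-binding protein, was at 32.9, 34.6 and 33.3 CPM and at 35.8, 33.6 and 30.8 CPM, with a log2FC of -0.00 (SE 0.11). SDHA (Os07g0134800) and eEF1α (Os03g0177500) had log2FCs of 0.00 and 0.05, each with an SE of 0.11. These 3 genes had overlapping groups. Of the 10 genes that the study compared as references, 3 were called lower and 0 higher, and β-tubulin (-0.32), HSP (0.51), LSD1 (-0.08) and Ubiquitin (0.76) were not called.

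Another set holds the genes chosen in the study for quantitative PCR. LHCB (Os03g0592500) fell from 750, 642 and 781 CPM to 200, 256 and 202 CPM (log2FC -1.72, SE 0.13, adjusted p = 6.71e-07). Its level in RP_0 was 306 to 318 CPM, so B15_0 lay well above RP_0, and in RP_late it was 173 to 215 CPM. Os03g0245200 (-1.89), OsAT1 (Os01g0615300, -1.20) and OsGDI3 (Os03g0277000, -1.04) were called lower too, and OsGDI3 lost its call without the library labelled B15_late-3 (adjusted p = 0.0615). RBBI2-1 was called higher. Os05g0335100 was at 39.2, 37.6 and 40.3 CPM in B15_0 and 37.2, 39.6 and 32.2 CPM in B15_late, overlapping groups with a log2FC of -0.10 (adjusted p = 0.456), whereas RP_0 was at 2.28 ± 0.361 CPM. Os10g0165300 (log2FC 0.49) and OsATL15 (Os01g0597600, 0.59) were not called.

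By the chromosome given in the identifiers, the share of tested genes called higher ran from 11.9% on chromosome 4 to 17.7% on chromosome 11 (212 of 1197), beside 13.4% over all genes. The share called lower ran from 11.2% on chromosome 12 to 16.2% on chromosome 4, beside 13.9%. Locally, the stretch of chromosome 1 that holds the Bowman-Birk genes contains 32 loci in the order of their identifiers, of which 20 were tested, 9 called higher and 1 lower. The one that fell is OsLPR4 (Os01g0126900), a multicopper oxidase, with a log2FC of -3.38. The stretch that holds the receptor-like kinase genes contains 55 loci, of which 20 were tested, 13 called higher and 0 lower. Most of those called higher were low in B15_0, down to 0.363 CPM (OsRLCK2). Without the library labelled B15_late-3 the log2FC fell under the 2-fold limit for OsRLCK11 (0.89), Os01g0116400 (0.95) and OsRLCK15 (0.95). The kinase family was lower in B15_0 than in RP_0 (median log2FC -1.17), and against RP_0 5 of the family were called higher and 1 lower. Calls against RP_0 were not counted by stretch. Over named genes 30.6% were called higher, though the stretches also hold genes without a name. Counts by chromosome and by stretch were made with all 6 libraries only. Both stretches were set around named families after their values were known, and neighbouring similar genes may share reads, so these counts are a description.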

How the data were processed

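Leaf sheath RNA of 36 libraries was sequenced, and 6 libraries form the comparison reported here. The authors aligned reads with HISAT2 2.0.4 to IRGSP 1.0 and counted fragments per gene with HTSeq, and the deposited counts are whole numbers without normalization for 38978 genes. Annotation release and strand setting are not given in the sources used here. Labels and methods name different library kits, sequencers and one infestation time. No column was unmapped (0 of 36). The authors' tables of fold changes and p-values were not used beyond gene names.

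Counts were tested in R 4.3.3 with edgeR 4.0.16 (limma 3.58.1): filterByExpr with a minimum count of 10, TMM, quasi-likelihood fit of the 6 libraries, Benjamini-Hochberg adjustment. Calls needed an adjusted p below 0.05 and over 2-fold change. SEs are the log2FC over the root of F. Late changes in B15 and RP were compared by interaction in 12 libraries. CPM used TMM over 15 libraries. In counts simulated for this comparison, 200 of 200 genes changed by a log2FC of 2 were recovered. These genes were drawn from above a minimum level and were far fewer than those called here. Smaller changes and genes at low levels were not covered. Replicates were biological according to the methods. No pairing by replicate number was seen (correlations of deviations -0.021, -0.284 and -0.102). The library labelled B15_late-3 entered these deviations, so the check cannot settle whether the numbers pair libraries.

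Named genes were the 10 largest changes each way among genes with a product name, non-overlapping groups, at least 5 CPM on average and the same call without the library labelled B15_late-3, then up to 4 called genes per family, 10 reference genes, OsPOX8.1 and 8 genes of quantitative PCR. The comparison and the lists were chosen with earlier results of these data known. The planned lists relied on an annotation that could not be joined to these identifiers, so 22 keyword families (224 genes) took their place after values had been seen. The planned rule for genes separating B15 from B1415 (at least 2 CPM against under 0.2 CPM) found 0 genes, and a wider rule (at least 2 CPM and over 4-fold) was chosen after the data were seen. Alternatives were DESeq2 1.42.0, its size factors, no filter, the replicate block, a fit of 36 libraries, an unadjusted p, each library left out, and RP_0 as baseline. RP_0 as baseline, and RP_late as reference, without the library labelled B15_late-3 were added after the data were seen.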

Additional observations from a re-analysis of the deposited data

Results flagged for a closer look

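The change with late feeding differed between B15 and RP for 11640 of 25103 genes by the interaction of line and stage (edgeR, adjusted p below 0.05). Both lines were compared with their own uninfested libraries, and B15_0 itself had 3018 genes called higher and 2798 lower than RP_0.

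Of the 20 leading genes, 10 differed between the lines by this test, a share near the 46.4% of all genes, and 16 differed without the library labelled B15_late-3. The values are given here as the difference of the log2 changes, B15 minus RP. The rise was larger in B15 for Glua1 (4.80, adjusted p = 0.000826), OsJAC1 (1.79, adjusted p = 0.0199) and Os09g0268600 (1.65, adjusted p = 0.0011). Glua1 had 1 count in B15_0, and its level in B15_late (10.3 ± 3.89 CPM) lay within 1 SD of that in RP_late (11.8 ± 2.87 CPM; SD, n = 3). OsJAC1 started alike in both lines (0.604 ± 0.322 CPM in B15_0 and 0.854 ± 0.479 CPM in RP_0) and ended at 12.5 ± 4.97 CPM in B15_late and 4.79 ± 0.783 CPM in RP_late.

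The fall was larger in B15 for Os03g0636700 (-1.61), Os03g0221500 (-1.48), Os01g0190500 (-1.38), UGT703A1 (-1.22), OsGSTF1 (-1.03), Os01g0296700 (-0.89) and Os01g0516200 (-0.59). In each of these 7 the B15_0 mean was above the RP_0 mean, as for OsGSTF1 with 115 ± 15.7 CPM in B15_0, 45.5 ± 2.76 CPM in RP_0, 23.8 ± 1.51 CPM in B15_late and 18.9 ± 2.83 CPM in RP_late.

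The 6 leading genes that differed only without the library labelled B15_late-3 were OsPR2 (-0.52, adjusted p = 0.0124), OsGELP5 (-0.47), OsGELP2 (-0.50), OsJRL (0.87), Os01g0266800 (0.81) and OsERF#141 (0.85), with the difference taken in that fit.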

How the results depend on the processing

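The counts of genes called in B15_late against B15_0 stayed within 1.5 times of 3248 higher and 3364 lower under every alternative except RP_0 as baseline, which gave 1383 lower (1890 without the library labelled B15_late-3). With RP_0 as baseline, line and feeding stage differ together, so that setting is another comparison, not a change of processing. With 1 library left out the counts ranged from 2767 to 3541 higher and from 3030 to 3684 lower, and DESeq2 gave 3089 and 3340. The replicate block gave 3194 and 3396, and 11196 genes for the interaction with RP, which ranged from 9952 to 12062 with 1 library left out. The block is given only as a check, since no pairing of same-numbered libraries was shown. Of the 105 named genes, 94 kept their direction and their side of the threshold under every alternative other than RP_0 as baseline. With RP_0 as baseline 45 did so, 46 lost their call, 10 changed sign and 4 were below the filter on low counts, and 25 of 38 counts of calls per family moved by over 1.5 times. WRKY factors called higher and lower were 0 and 1, with RP_0 as baseline 2 and 0 (also 2 and 0 without the library labelled B15_late-3), and with 1 library left out 0 to 1 and 1 to 2. Class III peroxidases called higher and lower were 0 and 7, with RP_0 as baseline 1 and 2 (2 and 3 without the library labelled B15_late-3), and with 1 library left out 0 to 1 higher. The Bowman-Birk count was 7 under every alternative except without replicate 2 of B15_0, where it was 6.

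With RP_0 as baseline the log2FC changed sign for Os01g0211600 (0.11, and 0.11 without the library labelled B15_late-3), Os07g0203275 (-0.094 and -0.066), Os01g0263400 (-0.12 and -0.10), OsHAC701 (-0.0022), OsWD40-15 (-0.31 and -0.36), β-tubulin (0.47 and 0.57), HSP (-0.36 and -0.46), LSD1 (0.53 and 0.68), Os05g0335100 (3.98 and 4.05), OsATL15 (-0.074 in the latter alone) and SDHA (-0.17 and -0.17). SDHA stayed near 0 elsewhere, at -0.0046 with DESeq2's size factors, -0.0022 without a filter, -0.0048 with DESeq2, -0.00063 in the fit of 36 libraries and from -0.066 to 0.071 with 1 library left out. With 1 library left out, eEF1α ranged from -0.047 to 0.094, LSD1 from -0.19 to 0.072 and TBP from -0.055 to 0.046. The cause of these changes was not tested. Genes under about 1 CPM are limited by depth.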
